A study of Mus musculus with 6 samples.

Results

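Fanconi anemia and homologous recombination genes were examined in hematopoietic stem cells (HSCs) of the mouse fetal liver, the organ in which blood stem cells expand before birth. The set was a given list of 33 genes, taken by exact symbol. All 33 were among the 38926 genes of the count files, and all 33 passed the filter on low counts, which left 13646 genes for testing. RNA was sequenced from HSCs of E14.5 mouse embryos, purified by flow cytometry on surface markers. The 3 control samples had the genotype Vav-Cre; Dpy30F/+ and the 3 knockout samples had Vav-Cre; Dpy30F/-. Each of 3 litters gave 1 sample of each genotype, and samples carry their litter number here. The Vav-Cre transgene makes Cre recombinase in the blood lineage, and F marks a floxed allele, which Cre can delete. Controls also carried Vav-Cre and 1 floxed allele, so where Cre acted their cells kept 1 intact Dpy30 allele rather than a pair. The Dpy30 protein belongs to the SET1/MLL enzyme complexes, which place methyl groups on histone H3 at lysine 4. The labels do not say whether a sample was 1 embryo or a pool, and p-values here measure the spread between these samples.

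The Fanconi pathway repairs DNA interstrand crosslinks that block replication forks. A multi-protein core complex adds ubiquitin to the FANCD2-FANCI pair, which lets nucleases unhook the crosslink and leaves a break that homologous recombination mends. In homologous recombination the break ends are trimmed to single strands, BRCA proteins and the BCDX2 and CX3 complexes prepare them for strand exchange, and helicases and nucleases resolve the joined molecules that result. Inherited loss of many core complex genes or of Fancd2 causes Fanconi anemia, in which blood stem cells fail.

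Upstream sequence was read for the members because many of them are known as S phase genes, whose promoters often carry E2F or CCAAT letters. RefSeq promoter windows (GRCm38.p6) matched 25 of the 33 members. The letters TTTCCCGC, 1 of 3 E2F-type words searched on both strands with TTTGGCGC and TTTCGCGC, lay before the start of Fancg, Bard1 and Brca2. These are 3 of 25 members (12%), against 1.78% of the 27025 genes with a window of the same length for any of the 3 words. The 3 matches are shown with 10 bases on each side, 5′ to 3′ on the gene's strand, with the matched letters in capitals. Brca2 holds the word on the opposite strand.
Fancg (chr4:43010336-43010363, minus strand): ttcttttcagTTTCCCGCggaaccgtct
Bard1 (chr1:71103164-71103191, minus strand): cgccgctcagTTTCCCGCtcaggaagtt
Brca2 (chr5:150522443-150522470, plus strand): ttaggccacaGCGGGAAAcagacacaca
The match begins 52, 209 and 168 bases before the RefSeq start of Fancg, Bard1 and Brca2. GENCODE M21 places the starts of Fancg and Bard1 further upstream, and its exons cover 174 of the 250 bases of the Bard1 window. The Bard1 match thus lies closer to that start than to the RefSeq start. All 28 bases shown for Fancg lie in an annotated exon of the gene, while those of Bard1 and Brca2 lie in none. The letters TTTGAA, found in the cell cycle homology region of some late cell cycle promoters, were in the window of 1 of 25 members (4%), Bard1, against 18.3% of all genes. CCAAT was in 14 of 25 (56%), against 37.5%. A match describes letters only.

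Whole upstream windows are shown for Fance and Mus81, whose knockout values lay below and above all controls (given further on), and for Xrcc3, which held the most CCAAT matches of the members, 6 on both strands together. They end at the base before the RefSeq start, and GENCODE M21 exons cover 11 bases of the Fance window, 23 of the Mus81 window and none of the Xrcc3 window. Here capitals mark CCAAT or its reverse complement.
Fance (chr17:28313280-28313529, plus strand): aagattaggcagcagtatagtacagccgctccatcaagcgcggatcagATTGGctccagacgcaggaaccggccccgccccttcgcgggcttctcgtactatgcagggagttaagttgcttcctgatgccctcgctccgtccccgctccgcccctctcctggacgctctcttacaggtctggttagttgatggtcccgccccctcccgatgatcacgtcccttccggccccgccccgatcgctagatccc
Mus81 (chr19:5488380-5488629, minus strand): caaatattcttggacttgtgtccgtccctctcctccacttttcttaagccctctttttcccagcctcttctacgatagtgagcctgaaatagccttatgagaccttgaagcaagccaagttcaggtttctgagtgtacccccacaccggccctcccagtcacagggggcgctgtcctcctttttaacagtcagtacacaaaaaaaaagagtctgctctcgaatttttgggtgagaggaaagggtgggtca
Xrcc3 (chr12:111813880-111814129, minus strand): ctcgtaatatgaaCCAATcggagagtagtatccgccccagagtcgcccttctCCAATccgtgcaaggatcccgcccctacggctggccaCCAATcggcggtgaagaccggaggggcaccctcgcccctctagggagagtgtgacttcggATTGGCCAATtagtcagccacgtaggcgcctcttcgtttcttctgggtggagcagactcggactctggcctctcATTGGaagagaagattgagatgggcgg
Fance held CCAAT once, on the opposite strand and 202 bases before the start. The Mus81 window held neither CCAAT nor any of the 3 E2F-type words. Mre11a, whose knockout values also lay above all controls, had 2 CCAAT matches on both strands together, and its window is not shown. Xrcc2, also below all controls, had no RefSeq window.

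The libraries held 31897737 to 43394700 gene counts, of which the mitochondrial ribosomal RNAs took 45.2% to 61.7%. Dpy30 was at 24.6, 24.2 and 31.6 CPM in controls 1 to 3 and at 7.93, 5.95 and 13.7 CPM in knockouts 1 to 3. Knockouts thus kept 34.2% of the control mean (two-sided exact permutation p = 0.1, the smallest that 3 against 3 samples allow). In edgeR the log2 fold change of Dpy30 was -1.55 (unadjusted p = 0.0102, adjusted p = 0.672), and -1.80 without litter 3. The DESeq2 adjusted p was 0.131, so neither test called the deleted gene itself at an adjusted p under 0.05. CPM are gene counts per 1000000 of a library size adjusted with edgeR's TMM factors. The 14 HSC and progenitor markers summed to 981 to 1156 CPM in controls and to 1147, 1408 and 693 CPM in knockouts 1 to 3. The 15 myeloid and macrophage markers summed to 149 to 271 CPM in controls and to 568, 485 and 1476 CPM in knockouts 1 to 3. Knockout 3 was therefore both the lowest library in HSC markers and the highest in myeloid markers. All 14 of the myeloid markers tested had a positive log2 fold change (median 2.19). Of them, 8 had an unadjusted edgeR p under 0.05 (57.1%, against 4.26% of all genes higher at that level) and 0 an edgeR adjusted p under 0.05. Among these markers, only Csf1r, Lyz2, C1qb and Fcgr3 had a DESeq2 adjusted p under 0.05, as did 1.03% of all genes. Without litter 3 the median of the myeloid markers tested was 1.525, with 1 negative and 6 at an unadjusted edgeR p under 0.05 (5.39% of all genes). Knockout 2 had 97.2 CPM of the 4 endothelial markers (Cdh5, Kdr, Stab2 and Lyve1), against 1013 to 1639 CPM in the other 5 libraries. Erythroid markers summed to 976 to 2900 CPM and hepatocyte markers to 3.58 to 23.3 CPM. Lymphoid markers summed to at most 3.21 CPM, with Cd3e, Cd3g and Pax5 at 0 in all 6. In bulk RNA, fewer cells of a type and less RNA per cell cannot be told apart. The part of these differences in the values below was not tested, and the main results are given with and without litter 3.

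No member of the set passed the test in either direction. In edgeR's quasi-likelihood test over 13646 genes, 0 of 33 members had a Benjamini-Hochberg adjusted p under 0.05, as was true of all genes (0%). The count was also 0 of 33 when the unadjusted p was read at 0.05, against 6.51% of all genes. The smallest unadjusted p among members was 0.0576 (Xrcc2, adjusted p = 0.775). The members' log2 fold changes, knockout over control, ran from -2.27 (Xrcc2) to 1.22 (Rad51c) with a median of -0.10, beside 0.01 for all genes. Negative values numbered 18 of 33 (54.5%), beside 49.2% of all genes. Scaled by library size alone, the median of the members was 0.04 and that of all genes 0.23, so its sign depended on the scaling, while it lay below that of all genes under each of the 4 scalings run.

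Without litter 3, which leaves 2 against 2 samples, the members' median was -0.01 with 18 of 33 negative, beside 0.01 for all genes. Again 0 of 33 members had an adjusted p or an unadjusted p under 0.05, and 5.39% of the 14130 genes then tested had the latter. With litter as a block, a pairing given by the labels, 0 of 33 members passed at either level, against 4.54% of all genes at an unadjusted p under 0.05. DESeq2 called 1.03% of 13390 genes at an adjusted p under 0.05 and none of the 33 members. Of the members, 2 (Fance and Xrcc2) had an unadjusted DESeq2 p under 0.05, against 9.41% of all genes. In limma-voom 4 did (Eme1, Fancd2, Rad51d and Xrcc2), against 7.39%. A test that misses its threshold does not show equal levels. The narrowest 95% confidence intervals belonged to abundant members, such as -0.33 to 0.76 for Rad50 and -0.14 to 1.01 for Brca1.

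**Figure D1:**
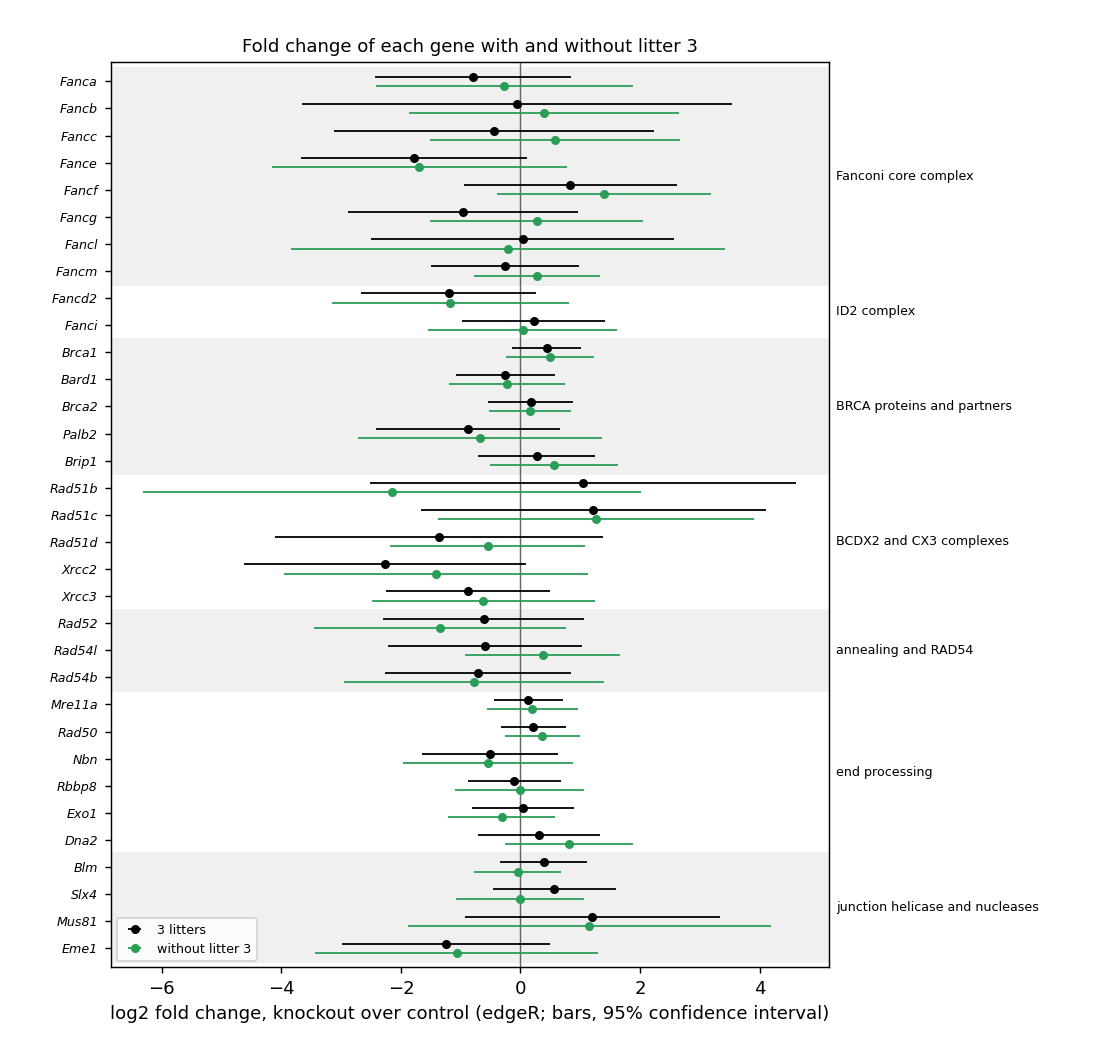
Log2 fold change of each of the 33 members, knockout over control, with 3 litters (black) and without litter 3 (green). Points are edgeR estimates, bars are 95% confidence intervals, and shading separates the roles. Every interval includes 0, and Rad51b goes from 1.05 to -2.15 when litter 3 is left out.

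In 4 members the knockouts lay wholly outside the controls. Fance and Xrcc2 were lower in every knockout than in any control (2 of 33, or 6.06%, against 7.74% of all genes), and Mre11a and Mus81 were higher (2 of 33, against 6.39%). Both shares are close to those of all genes. In litters 1 and 2 alone, both knockouts were below both controls for 6 members (Fance, Fancd2, Bard1, Xrcc2, Rad52 and Exo1), against 18% of all genes. Both were above for 7 members (Brca1, Brca2, Brip1, Mre11a, Rad50, Dna2 and Mus81), against 17.5%. By litter, 8 members (24.2%) were lower in the knockout of every litter, against 15.9% of all genes, and 5 (15.2%) were higher in every litter, against 12.3%.

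**Figure D2:**
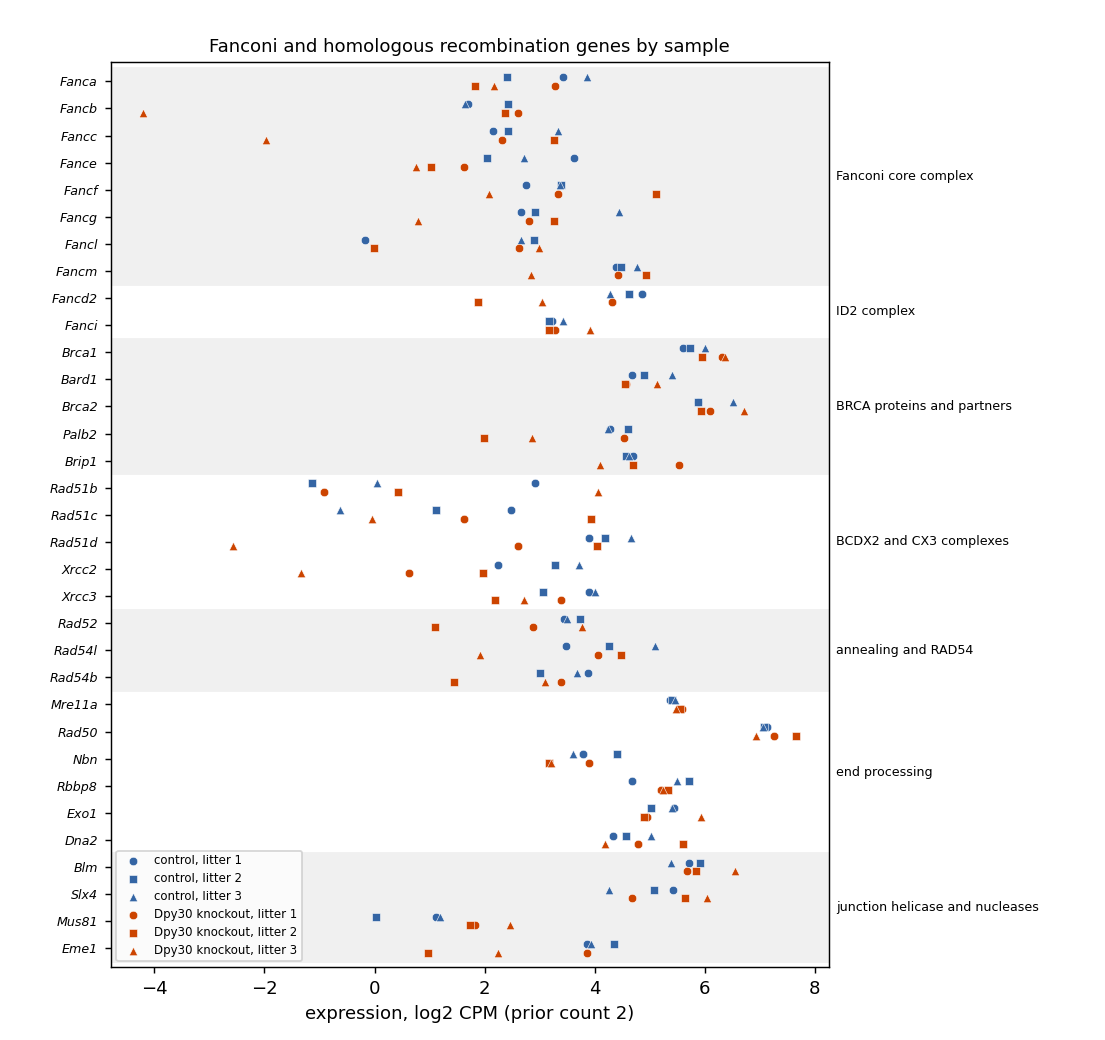
Expression of the 33 members in each of the 6 samples, in log2 CPM with a prior count of 2, grouped by role. Controls are blue and knockouts orange, with 1 marker shape per litter. Orange triangles, knockout 3, lie far left for Fancb, Fancc, Rad51d and Xrcc2, and the 6 values of Mre11a nearly coincide.

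The Fanconi core complex, with 8 members here, assembles the ubiquitin ligase of the pathway. Of the 8, 6 had a negative log2 fold change with a median of -0.35. Without litter 3 the count was 3 of 8 and the median 0.27, so the core complex median changed sign. Fancb turned positive when scaled by library size alone, and Fancl turned negative under upper-quartile scaling. Per kilobase of merged exon length (GENCODE M21, GRCm38), the control means ran from 0.79 CPM for Fancc to 5.41 CPM for Fancf.

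Fance (ENSMUSG00000007570.16, chromosome 17, 28313519 to 28326572, plus strand, protein-coding) encodes the subunit that links the core complex to FANCD2. It stood at 12.2, 4.09 and 6.51 CPM in controls 1 to 3 and at 3.02, 1.98 and 1.63 CPM in knockouts 1 to 3. Each knockout was below the lowest control, and the knockout mean was 29.05% of the control mean. The log2 fold change was -1.78 (SE 0.82, 95% interval -3.67 to 0.11, edgeR adjusted p = 0.775). Without litter 3 it was -1.69 (SE 1.01, adjusted p = 0.98), so Fance was nearly as low in the knockouts of litters 1 and 2. With litter as a block it was -1.69 (adjusted p = 0.953).

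Fancf, a small adaptor subunit in 1 exon, was at 6.67, 10.4 and 10.4 CPM in controls and at 10.1, 34.8 and 4.17 CPM in knockouts. Knockouts 2 and 3 fell on opposite sides of the controls, and the log2 fold change was 0.84 (SE 0.77), or 1.40 without litter 3. Fancc, a subunit that binds FANCE, was at 4.39, 5.32 and 10.1 CPM in controls and at 4.93, 9.51 and 0.2 CPM in knockouts. The first 2 knockouts lay inside the control range, while knockout 3 held 7 counts. Fancb, an X-linked partner of the ligase subunit, was also lowest in knockout 3. It was at 3.21, 5.29 and 3.08 CPM in controls and at 6.04 and 5.13 CPM in knockouts 1 and 2. Knockout 1 lay above all controls and knockout 2 inside their range. Knockout 3 had 0 counts of Fancb, which allows up to 0.0857 CPM (3 counts; counting error only), against 93 to 198 counts in controls. Fancb and the other members described beyond the highest, lowest and non-overlapping ones were singled out after their values were seen.

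Fancg, which binds FANCA, was at 6.28, 7.51 and 21.8 CPM in controls and at 6.97, 9.59 and 1.69 CPM in knockouts. Litter 3 thus held both its highest and its lowest sample, and the log2 fold change was -0.96 with that litter and 0.27 without. Fancm, the helicase that anchors the core complex on DNA, was at 20.9 to 27.2 CPM in controls and at 21.5, 30.4 and 7.11 CPM in knockouts. Fanca, the gene most often mutated in patients, was lower in the knockout of all 3 litters, with log2 differences of -0.15, -0.59 and -1.69 from litter 1 to litter 3. Its controls spanned 5.24 to 14.49 CPM and its knockouts 3.47 to 9.61 CPM, so the ranges overlapped. The log2 fold change of Fanca was -0.79 with litter 3 and -0.27 without, and that of Fancm -0.26 and 0.27. Fancl, the ligase subunit, had 1 low sample in each genotype, 0.829 CPM in control 1 and 0.937 CPM in knockout 2, and 6.09 to 7.85 CPM in the other 4. Exons of Fanca, Fancc, Fancf and Fancl, and of Fanci, Rad54l and Eme1 described below, overlap those of neighbours on the opposite strand over 10.5% to 18.6% of their length, and whether counting used strand is not given in the sources used here.

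The ID2 pair, Fancd2 and Fanci, is the substrate that the core complex ubiquitinates. Fancd2 was at 29.1, 24.5 and 19.5 CPM in controls and at 19.9, 3.64 and 8.17 CPM in knockouts. Knockout 1 lay within the control range and the others below it. For Fancd2 the log2 fold change was -1.20 (SE 0.63, unadjusted p = 0.094, edgeR adjusted p = 0.797) and -1.17 (SE 0.81) without litter 3. Fanci was at 9.29, 8.93 and 10.7 CPM in controls and at 9.61, 8.98 and 15.1 CPM in knockouts, with a log2 fold change of 0.22 (SE 0.52), or 0.04 without litter 3. The partners thus had estimates of opposite sign, and the difference between them was not tested. Per kilobase, Fancd2 stood above Fanci in controls (3.07 ± 0.608 and 1.67 ± 0.163 CPM, SD, n = 3). In knockouts the order was turned (1.33 ± 1.06 and 1.95 ± 0.584 CPM), within the spread of Fancd2.

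The BRCA proteins act on resected DNA ends and protect stalled replication forks. Brca1, which with Bard1 forms a ubiquitin ligase, was at 48.7, 53.04 and 63.9 CPM in controls and at 79.9, 61.9 and 82.4 CPM in knockouts. It was higher in the knockout of each litter (by 0.71, 0.22 and 0.37 on the log2 scale), although knockout 2 lay below control 3. Its log2 fold change was 0.44 (SE 0.25, unadjusted p = 0.118, edgeR adjusted p = 0.817) and 0.49 (SE 0.30) without litter 3. Brca2, which acts after Brca1 in recombination, was also higher in the knockout of each litter, by 0.23, 0.05 and 0.21 on the log2 scale. Its samples ran from 58.7 to 91.1 CPM in controls and from 61.4 to 106 CPM in knockouts. Bard1 was lower in the knockout of each litter, with log2 differences of -0.12, -0.34 and -0.27 and with 25.6 to 42.5 CPM in controls and 23.5 to 35.1 CPM in knockouts.

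Palb2, which bridges Brca1 and Brca2, was at 19.4, 24.4 and 19.01 CPM in controls and at 23.2, 3.91 and 7.23 CPM in knockouts. Knockout 1 was among the controls and the other knockouts lay well below, as with Fancd2. Its estimate on the log2 scale was -0.87 (SE 0.67) and -0.68 (SE 0.84) without litter 3. Brip1, a helicase that binds Brca1, was at 25.8, 23.6 and 24.6 CPM in controls and at 46.2, 25.9 and 17.2 CPM in knockouts. Its controls had an SD of 1.11 CPM while the knockouts lay on both sides of them, and its log2 fold change was 0.27 with litter 3 and 0.56 without. Per kilobase, Brca1 was the highest of the 5 in controls (6.47 ± 0.919 CPM, SD, n = 3) and Palb2 the lowest (2.85 ± 0.406 CPM). Brca1 lay within the spread of Bard1 (5.76 ± 1.55 CPM), and Brca2 followed at 5.11 ± 1.36 CPM.

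The BCDX2 and CX3 complexes support strand exchange and fork protection, and share Rad51c. Of their 5 genes, 3 (Rad51d, Xrcc2 and Xrcc3) had a negative log2 fold change, and the knockout of each litter was below its control for all 3. The other 2, Rad51b and Rad51c, had positive values. The median was -0.87, and -0.62 without litter 3, when Rad51b turned negative and 4 of 5 were below 0.

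Xrcc2 (ENSMUSG00000028933.11, chromosome 5, 25689812 to 25705825, minus strand, protein-coding) was at 4.70, 9.68 and 13.2 CPM in controls and at 1.48, 3.89 and 0.343 CPM in knockouts. All 3 knockouts were below the lowest control, and knockout 3 held 12 counts. The knockout mean was 20.8% of the control mean. The log2 fold change was -2.27 (SE 1.02, 95% interval -4.63 to 0.09, edgeR adjusted p = 0.775). Without litter 3 it was -1.42 (SE 1.04, unadjusted p = 0.223), with the ranges still apart. Rad51d, which pairs with Xrcc2, was at 14.9, 18.1 and 25.1 CPM in controls and at 6.04, 16.4 and 0.114 CPM in knockouts. Knockout 3 held 4 counts of Rad51d against 430 to 1108 in controls, and knockout 2 lay inside the control range. Its log2 fold change was -1.37 (SE 1.19) and -0.55 (SE 0.67) without litter 3.

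Xrcc3, the partner of Rad51c, was at 14.9, 8.29 and 16.01 CPM in controls and at 10.5, 4.49 and 6.48 CPM in knockouts (log2 fold change -0.87, SE 0.60). Only knockout 1 exceeded the lowest control. Rad51c was at 5.53, 2.11 and 0.59 CPM in controls and at 3.04, 15.2 and 0.914 CPM in knockouts, a spread wider within each genotype than between them (log2 fold change 1.22, SE 1.26). Rad51b was at 7.53, 0.401 and 0.975 CPM in controls and at 0.478, 1.29 and 16.6 CPM in knockouts. A single sample stood high in each genotype, and the litters differed by -3.83, 1.57 and 4.02 on the log2 scale. The log2 fold change of Rad51b was 1.05 (SE 1.55) with litter 3 and -2.15 (SE 1.71) without. Per kilobase, Rad51d was highest of these genes in controls (5.21 ± 1.41 CPM, SD, n = 3), within the spread of Xrcc3 (4.76 ± 1.52 CPM), and Rad51c lowest (0.626 ± 0.577 CPM). Rad51c, Rad51b (0.79 ± 1.05 CPM) and Xrcc2 (1.76 ± 0.816 CPM) were neighbours that did not differ beyond their spread.

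The annealing and RAD54 genes act in strand pairing, and all 3 had a negative log2 fold change (median -0.62). Rad54l, a motor protein of strand exchange, was at 11.1, 19.2 and 34.1 CPM in controls and at 16.7, 22.3 and 3.71 CPM in knockouts. The knockouts of litters 1 and 2 were above their controls, and the log2 fold change went from -0.59 (SE 0.71) to 0.37 (SE 0.53) without litter 3. Rad54b, its relative, was at 14.7, 7.997 and 12.7 CPM in controls and at 10.4, 2.67 and 8.48 CPM in knockouts, lower in each litter (log2 fold change -0.72, SE 0.67). Its exons overlap those of Fsbp on the same strand and of Gm11832, over 35.9% of their length together, so its counts are uncertain. Rad52, the annealing protein, was at 10.8, 13.2 and 11.3 CPM in controls and at 7.27, 2.09 and 13.7 CPM in knockouts (log2 fold change -0.62, SE 0.73, and -1.345, SE 0.86, without litter 3). Per kilobase, the 3 control means lay between 2.04 and 2.79 CPM and did not differ beyond their spread.

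End processing begins recombination at a break. The log2 fold changes of its 6 genes lay between -0.51 and 0.31 with a median of 0.08, and of 0.09 without litter 3. Mre11a, the nuclease of the MRN complex (ENSMUSG00000031928.15, chromosome 9, 14784654 to 14837123, plus strand, protein-coding), was at 41.3, 42.3 and 44.3 CPM in controls and at 48.2, 47.0 and 44.7 CPM in knockouts. All knockouts were above all controls, knockout 3 by less than 1 CPM over control 3. The difference was small, with means of 42.6 ± 1.50 and 46.6 ± 1.77 CPM (SD, n = 3) and a log2 fold change of 0.13 (SE 0.25, edgeR adjusted p = 0.963), or 0.20 without litter 3. It depended on scaling, at 0.01 with upper-quartile factors and 0.33 with library size alone, where all genes had medians of -0.10 and 0.23.

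Rad50, the tethering subunit of MRN, was the most abundant member per kilobase (controls 25.5 ± 0.689 and knockouts 29.6 ± 7.52 CPM, SD, n = 3). Its samples were at 141, 136 and 134 CPM in controls and at 153, 203 and 123 CPM in knockouts (log2 fold change 0.22, SE 0.24, and 0.37 without litter 3). The controls were tightly grouped and the knockouts spread around them. Nbn, the third MRN subunit, was at 13.8, 21.2 and 12.1 CPM in controls and at 14.9, 8.96 and 9.17 CPM in knockouts (log2 fold change -0.51, SE 0.49). Of the complex, 2 subunits thus had positive estimates and 1 a negative one, and each 95% interval included 0. Rbbp8, the cofactor that starts resection, was the lowest of the role per kilobase (3.28 ± 1.11 CPM in controls, SD, n = 3). Dna2, at 4.33 ± 1.08 CPM, was within that spread. Rbbp8 stood at 25.6, 52.5 and 45.2 CPM in controls and at 36.9, 40.1 and 37.7 CPM in knockouts. This was the reverse of most members in that its knockouts were the closer group. Its log2 fold change was -0.10 (SE 0.34), and 0.04 with library size alone. The long-range nucleases Exo1 and Dna2 had log2 fold changes of 0.04 (SE 0.37) and 0.31 (SE 0.44), and the former was -0.11 with upper-quartile factors. Without litter 3 they were -0.31 and 0.81. In knockout 3, Exo1 was the highest of its 6 samples (61.2 CPM) and Dna2 the lowest of its 6 (18.1 CPM).

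Late recombination intermediates are undone by the helicase Blm or cut by nucleases. Mus81, a nuclease subunit (ENSMUSG00000024906.10, chromosome 19, 5482345 to 5488402, minus strand, protein-coding), was at 2.11, 0.963 and 2.22 CPM in controls and at 3.47, 3.28 and 5.46 CPM in knockouts. Every knockout was above the highest control, with 119 to 191 counts against 36 to 98. The log2 fold change was 1.20 (SE 0.92, 95% interval -0.92 to 3.33, edgeR adjusted p = 0.868) and 1.15 (SE 1.25) without litter 3. Eme1, its binding partner, was at 14.4, 20.4 and 15.3 CPM in controls and at 14.52, 1.90 and 4.68 CPM in knockouts. Knockout 1 was among the controls and the other knockouts were below all of them (log2 fold change -1.25, SE 0.76, adjusted p = 0.834, and -1.07, SE 0.97, without litter 3). The partners again had opposite signs. Per kilobase they were also the ends of the role in controls, Eme1 at 6.05 ± 1.16 CPM and Mus81 at 0.495 ± 0.195 CPM (SD, n = 3). Eme1 was within the spread of Blm (5.88 ± 1.055 CPM), while Eme1 and Mus81 differed beyond their spread. In knockouts the gap was narrower, at 2.55 ± 2.40 and 1.14 ± 0.338 CPM, and within the spread of Eme1.

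Blm was at 52.3, 60.5 and 42.03 CPM in controls and at 51.2, 57.5 and 93.8 CPM in knockouts. Slx4, the scaffold that docks several nucleases, was at 43.0, 33.9 and 19.1 CPM in controls and at 25.5, 50.3 and 66.3 CPM in knockouts. For both genes knockout 3 was the highest and control 3 the lowest sample. The log2 fold changes of 0.39 (SE 0.31) and 0.57 (SE 0.45) were -0.05 and -0.01 without litter 3. The median of this role likewise went from 0.48 to -0.03.

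**Figure D3:**
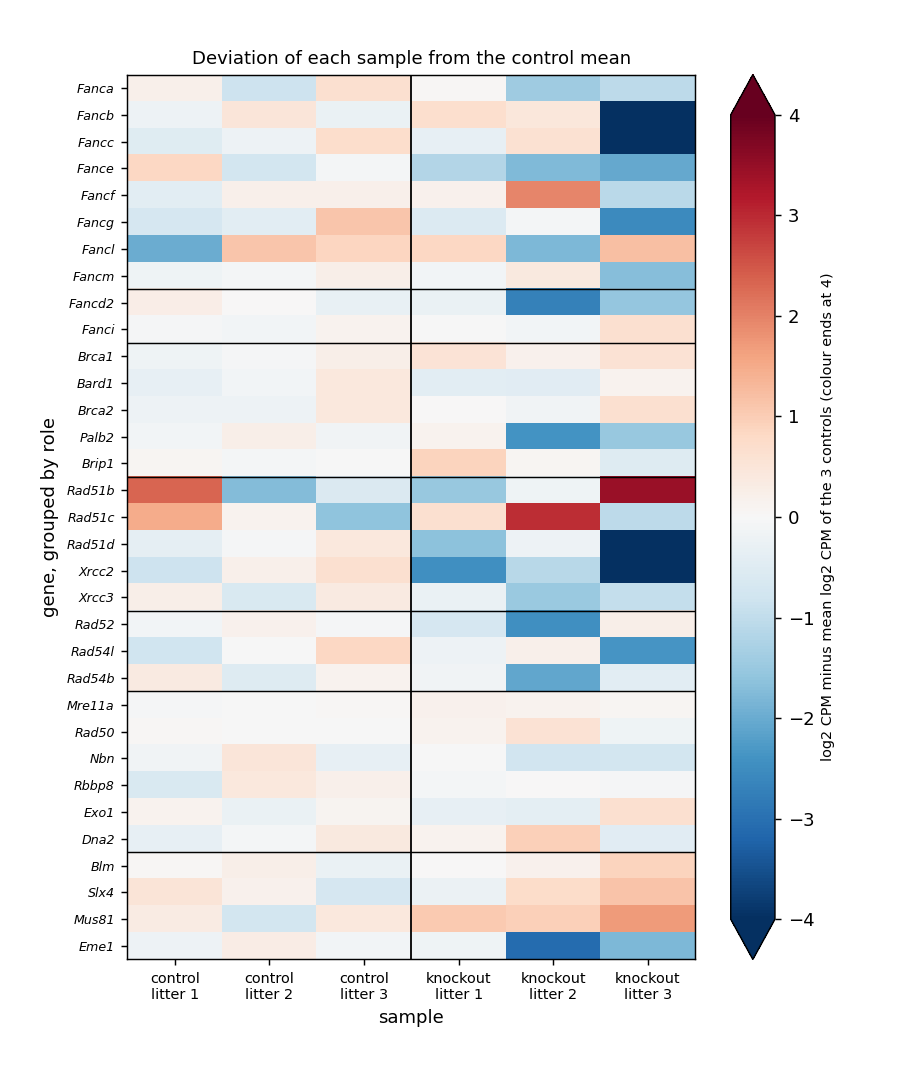
Difference of each sample from the mean log2 CPM of the 3 controls, by gene and sample, with the colour scale ending at 4 in either direction. Blue is lower and red higher, and lines separate the roles. Knockouts 2 and 3 are both blue for Fance, Fancd2, Palb2 and Eme1, while Fancb, Fancc and Rad51d are dark blue in knockout 3 alone.

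Low values in the knockouts fell mostly in knockouts 2 and 3. Measured against the control mean, a description chosen after the data were seen, knockout 1 was under 25% in 2 of 33 members (Rad51b and Xrcc2), against 6.54% of all genes. Knockout 2 was under 25% in 6 (Fancl, Fancd2, Palb2, Rad52, Rad54b and Eme1), against 16.9%. Knockout 3 was under 25% in 7 (Fancb, Fancc, Fance, Fancg, Rad51d, Xrcc2 and Rad54l), against 22.3%. The shares were 6.06%, 18.2% and 21.2% of the members, near those of all genes in the same libraries. At 25%, 0 of 33 members were in the lists of both knockouts 2 and 3, against 7.7% of all genes. Fance at 26.1% in knockout 2 and Eme1 at 28% in knockout 3 narrowly missed the limit. At 50%, also chosen after the data were seen, 7 members (Fanca, Fance, Fancd2, Palb2, Xrcc2, Xrcc3 and Eme1; 21.2%) were under it in both, against 13.5% of all genes. At over 4 times the control mean stood Rad51c in knockout 2 (1 of 33, against 4.13%) and Rad51b in knockout 3 (1 of 33, against 6.86%), and no member in knockout 1 (against 3.99%). Knockout 1 was the lowest of the 6 samples for 0 of 33 members (against 14.3% of all genes), knockout 2 for 10 (30.3%, against 22.8%) and knockout 3 for 12 (36.4%, against 29.1%). Knockout 3 was also the highest of the 6 for 10 members (30.3%, against 25.6%).

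The spread between replicates followed the level of the gene. Split at a mean of 20 CPM, a level chosen after the data were seen, the 12 members at or above it had a median SD of 0.249 among controls and 0.438 among knockouts on the log2 CPM scale. The 21 below it had 0.520 in controls and 1.36 in knockouts. All genes gave similar values, 0.277 and 0.500 above the split and 0.713 and 1.32 below it. The SD was larger in knockouts than in controls for 10 of the 12 (83.3%) and 17 of the 21 members (81%), near the 76.7% and 74.3% of all genes at those levels. Below the split, 15 of the 21 members had a negative log2 fold change (71.4%, median -0.62), against 51.6% of all genes. At or above it, 3 of the 12 did (25%, median 0.19), against 44.7%. The level includes the knockout values, and the difference in direction was not tested. Knockouts 2 and 3 had any count for 14674 and 13972 genes, against 16149 to 17241 in the other 4 libraries, and the part of this in the spread was not tested.

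**Figure D4:**
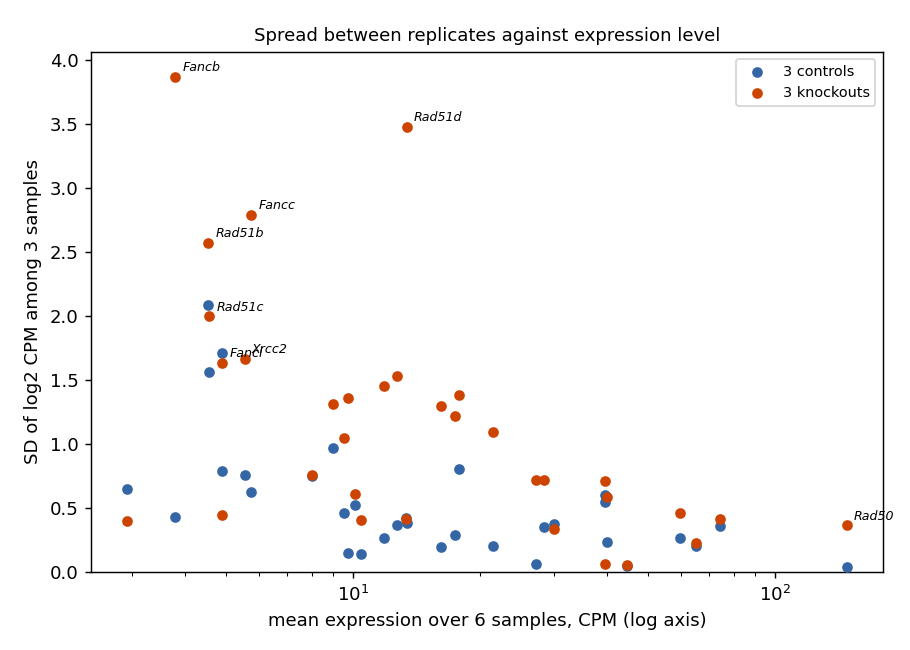
SD of log2 CPM among the 3 controls (blue) and among the 3 knockouts (orange) against the mean CPM over 6 samples on a log axis, 1 pair of points per member. Labels are placed beside the knockout point. The largest knockout SDs, for Fancb, Rad51d, Fancc and Rad51b, all lie under 20 CPM.

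Other genes of the pathway were read from a list of 48, of which 47 were found and tested. Their median log2 fold change was 0.01 with 23 of 47 negative, close to all genes. At an unadjusted p under 0.05, 5 were higher in knockouts (10.6%, against 4.26% of all genes) and 1 was lower (2.13%, against 2.24%), and none had an edgeR adjusted p under 0.05. Mad2l2, a subunit shared by translesion polymerase zeta and the shieldin complex, was at 7.18, 3.13 and 6.85 CPM in controls and at 9.54, 21.8 and 68.3 CPM in knockouts. Its log2 fold change was 2.54 (SE 0.76, adjusted p = 0.672, and DESeq2 adjusted p = 0.0415) and 1.61 (unadjusted p = 0.0848) without litter 3. Rev3l, the catalytic subunit of the same polymerase, was at 76.5, 65.7 and 82.8 CPM in controls and at 124, 103 and 133 CPM in knockouts (log2 fold change 0.68, SE 0.22, adjusted p = 0.709). Of the list, 3 genes (6.38%) had every knockout above every control, Mad2l2, Rev3l and Sfr1, against the 6.39% of all genes.

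Sfr1, which acts with Swi5 in strand exchange, was at 68.7, 81.6 and 106 CPM in knockouts against 40.4, 53.5 and 46.5 CPM (log2 fold change 0.87, SE 0.27, adjusted p = 0.675). Top3a, the topoisomerase partner of Blm, was at 6.11, 7.70 and 5.01 CPM in controls and at 6.32, 18.3 and 36.3 CPM in knockouts (log2 fold change 1.69, adjusted p = 0.753, and 0.84 with unadjusted p = 0.32 without litter 3). Rpa2, a subunit of the single-strand binding protein RPA, was the 1 gene lower at that level, at 37.5, 43.8 and 41.5 CPM in controls and at 26.5, 26.8 and 17.2 CPM in knockouts (log2 fold change -0.80, adjusted p = 0.753).

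Many members are expressed in S phase, so replication and proliferation genes are given beside them. Of 22, 18 (81.8%, against 49.2% of all genes) had a negative log2 fold change and the median was -0.41, or -0.31 without litter 3. At an unadjusted p under 0.05, 2 were lower (Mcm6 and Cdc6; 9.09%, against 2.24% of all genes) and none higher, with no edgeR adjusted p under 0.05. Mcm6, a subunit of the replicative helicase, was at 204, 193 and 192 CPM in controls and at 127, 146 and 113 CPM in knockouts (log2 fold change -0.61, SE 0.20, adjusted p = 0.709). Cdc6, which loads that helicase, was at 61.4, 45.7 and 33.8 CPM in controls and at 21.99, 30.9 and 16.5 CPM in knockouts (log2 fold change -1.02, SE 0.38, adjusted p = 0.729). Gins2 and Rrm2, for a helicase cofactor and a subunit of ribonucleotide reductase, had log2 fold changes of -1.13 and -0.49. Like Mcm6 and Cdc6, they were lower in every knockout than in any control. These were 4 of 22 genes (18.2%, against 7.74% of all genes), and 0 were higher in every knockout (against 6.39%). Tyms, for thymidylate synthase, was at -0.66 with overlapping ranges. The median of the replication and proliferation genes lay below that of the members, -0.41 against -0.10, and the difference between the lists was not tested.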

How the data were processed

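RNA sequencing of 6 samples was analysed, 3 per genotype, grouped by the genotype label and numbered by litter. The authors deposited raw counts, a whole number for every gene symbol and sample. Each list ends in 5 tallies of unassigned reads (41.0% to 51.0% of reads per library), which were left out. Per the submitters' processing notes, the tools were CASAVA 1.8.4, TopHat2, Picard 1.126, HTSeq 0.6.0, DESeq 3.0 and bedtools 2.17.0, with build mm10, and PCR copies cannot be told apart from separate molecules in the counts. Genes were filtered with filterByExpr, scaled by TMM and tested with edgeR 4.0.16 (glmQLFit and glmQLFTest, R 4.3.3), with Benjamini-Hochberg adjustment over all genes at 0.05. Alternatives were DESeq2 1.42.0, limma-voom (limma 3.58.1), litter as a block, other scalings and filters, and leaving out samples or litter 3. The procedure was tested on simulated data.

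The members, lists and tests were chosen with earlier results of these data known. Values per sample were given for members whose knockouts lay outside the controls, for the highest and lowest of each role per kilobase, and for up to 5 genes of each other list by smallest p. A gene of the other pathway list is counted but not reported here. RefSeq promoter windows held 250 bases before each start. Litter numbers pair the samples per the labels, and deviations of same-litter samples from their genotype means correlated at -0.0224, -0.0752 and 0.00336.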

Additional observations from a re-analysis of the deposited data

How the results depend on the processing

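The adjusted calls among the 33 members were 0 in every alternative run. Over all genes, 138 were called by DESeq2, 1 with no filter on low counts and 1 with at least 10 counts in every sample. Members with an unadjusted p under 0.05 numbered 2 in DESeq2 (9.41% of all genes), 4 in limma-voom (7.39%) and 2 with at least 10 counts in every sample (8.46%), where 30 members could be tested. Leaving out each sample in turn gave 0 to 3 such members, with 3 (Eme1, Fancd2 and Palb2) without knockout 1, against 12.5% of all genes, and 1 (Xrcc2) without knockout 2, against 9.98%. Without litter 3, members with knockouts wholly below controls numbered 6 (against 18% of all genes) and those wholly above numbered 7 (against 17.5%). Under upper-quartile scaling 4 were below and 1 above, and with library size alone 1 was below and 2 were above. The shares of all genes under those scalings are not given here, so these counts are not read as a result about the members. The litter block gave the other pathway genes a median of -0.18 and changed no adjusted call of a member. Their median was -0.18 in limma-voom, 0.18 with library size alone and -0.21 to 0.11 with each sample left out. The median of the replication and proliferation genes was -0.52 under upper-quartile scaling and -0.20 with library size alone. The median of all genes was itself at -0.12 with the litter block, -0.14 in limma-voom, -0.10 under upper-quartile scaling and 0.23 with library size alone.

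Of 492 log2 fold changes of the members under alternatives, 35 turned sign, over 17 members, none of them past the threshold, and the causes were not tested. Without litter 3 the values that turned were Fancb 0.40, Fancc 0.58, Fancg 0.27, Fancl -0.21, Fancm 0.27, Rad51b -2.15, Rad54l 0.37, Exo1 -0.31, Blm -0.0451 and Slx4 -0.0119. Library size alone turned Fancb (0.18) and Rbbp8 (0.0419), upper-quartile scaling turned Fancl (-0.11) and Exo1 (-0.11), limma-voom turned Fancl (-0.11) and Exo1 (-0.0414), and the litter block turned Exo1 (-0.0332). With each sample left out in turn, the log2 fold change ran from -0.58 to 0.54 for Fancb, -1.36 to 0.14 for Fancc, -0.36 to 1.30 for Fancf, -0.46 to 0.53 for Fancl and -0.72 to 0.16 for Fancm. It ran from -0.0397 to 0.36 for Fanci, -0.0855 to 0.41 for Brca2, -0.20 to 0.56 for Brip1, -1.73 to 3.15 for Rad51b and -0.47 to 2.24 for Rad51c. It ran from -0.35 to 0.11 for Rbbp8, -0.37 to 0.22 for Exo1 and -0.15 to 0.60 for Dna2. At this depth a count of 0 allows up to 0.104 CPM (3 counts) in control 1, whose TMM-adjusted library size was the smallest.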
